A study of Mus musculus with 5 samples.

Results

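The immunoglobulin constant region genes described here were 8 of the 28692 genes in the deposited tables and were chosen by name. They were the heavy chain genes *Ighm*, *Ighd* and *Igha*, the light chain genes *Igkc*, *Iglc1*, *Iglc2* and *Iglc3*, and *Jchain*. The annotation types 7 of them as immunoglobulin constant genes and *Jchain*, which encodes the joining chain of secreted antibody, as an ordinary protein coding gene. RNA was counted as unique molecular identifiers (UMIs) in 3′ single-cell libraries of bone marrow from 5 C57BL/6J mice aged 8 weeks. Each mouse was injected through the tail vein with 1000 BCR-ABL1+ pre-B acute lymphoblastic leukemia cells without irradiation, so that it kept its own marrow cells. The bones of 1 mouse were taken right after the injection (day 0) and those of 1 mouse each on days 3, 6, 9 and 12, with no untreated mouse. Each day was thus 1 animal, no test between days was possible, and day and animal cannot be told apart. The gene tables held no mCherry, the tag of the injected cells, so injected and host B-lineage cells were not separated.

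In B cell development the heavy chain is assembled before the light chain, and its gene is joined to the mu constant region of *Ighm*. The light chain then comes from the kappa locus, with the constant gene *Igkc*, or from the lambda locus, with *Iglc1*, *Iglc2* and *Iglc3*. Mature B cells splice the same long transcript also to the delta region of *Ighd*, class switching replaces mu by a later gene such as *Igha*, and plasma cells secrete antibody, with the joining chain linking IgM and IgA units into polymers.

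The libraries held 35329966, 38827241, 40601920, 43554233 and 33425695 UMIs on days 0, 3, 6, 9 and 12. Barcodes with at least 500 UMIs were taken as cells, which gave 6680, 5474, 6506, 7604 and 5871 cells with median depths of 2874, 3786, 3382, 3254 and 3408 UMIs. Free RNA, which leaks from broken cells into droplets without a cell, was read in barcodes with at most 100 UMIs. Pairs of libraries shared between 44 and 73 cell barcodes, where chance gives 43.6 to 68.9, and days 3 and 6 shared 68 where chance gives 48.3. Levels below are UMIs per 10000 UMIs of a class in a library, as 3′ tags that do not grow with transcript length, and intervals are exact Poisson or Clopper-Pearson 95% intervals that cover counting error only. Where a level is 0, the bound given is instead the level that 3 counts would have.

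Cell classes came from clusters made without any immunoglobulin gene and without *Jchain*, and each carries the name of the marker list it passed, except for the *Ms4a1 Ly6d* B-like class. That class passed 6 of 9 general B lineage markers, was not assigned to a stage by the lists and is named after leading genes. B-lineage cells fell into 226 pro-B-like, 524 cycling pre-B-like, 624 small pre-B-like, 445 *Ms4a1 Ly6d* B-like, 1743 mature B-like and 37 plasma-like cells. The plasma-like cluster passed 10 of 13 plasma cell markers, among them *Sdc1*, *Xbp1*, *Tnfrsf17*, *Mzb1* and *Derl3*, so its name did not rest on the antibody genes. It held 0, 4, 20, 12 and 1 cells on days 0, 3, 6, 9 and 12. None of the 6680 cells of day 0 was plasma-like, with an upper interval bound of 0.0552%. A further 127 cells with a median depth of 19395 UMIs came from day 3 alone, were led by *Rnase12*, *Myl10*, *Cdkn2a* and *Tmem119*, and were left without a cell type name.

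The 3 heavy chain genes lie in a row on the minus strand of chromosome 12 in the order in which they are used (GRCm38, GENCODE vM21, while the tables were counted on mm10). *Ighm* (ENSMUSG00000076617) spans chr12:113418558-113422730, *Ighd* (ENSMUSG00000104213) follows after 2233 bases at chr12:113406604-113416324, and *Igha* (ENSMUSG00000095079) lies 146367 bases further at chr12:113254830-113260236. *Igkc* (ENSMUSG00000076609) stands alone on the plus strand at chr6:70726435-70726966, and *Jchain* (ENSMUSG00000067149) lies on the minus strand at chr5:88519809-88527891. The lambda genes lie on the minus strand of chromosome 16, with *Iglc1* (ENSMUSG00000105906) at chr16:19061618-19062071, *Iglc3* (ENSMUSG00000105547) at chr16:19065230-19065681 and *Iglc2* (ENSMUSG00000076937) at chr16:19198396-19200351. *Iglc3* is 3158 bases from *Iglc1* but 132714 bases from *Iglc2*, its closest copy in sequence.

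*Iglc2* and *Iglc3* matched at 303 of 314 aligned coding bases (96.5%), while *Iglc2* and *Iglc1* matched at 234 of 313 (74.8%) and *Iglc1* and *Iglc3* at 236 of 313 (75.4%). From the stop codon to the end of the gene, nearest to where 3′ libraries read, *Iglc2* and *Iglc3* matched at 128 of 138 bases (92.8%) and *Iglc2* and *Iglc1* at 73 of 136 (53.7%). The last 150 coding bases of each gene are shown 5′ to 3′ because UMIs of the first pair rest on few distinguishing bases. Capitals mark bases that differ from *Iglc2* in the alignment, 4 in *Iglc3* and 40 in *Iglc1*. The gaps of the alignment are not shown, so in the first bases of the *Iglc1* line the marks do not follow the printed columns. The stretches are chr16:19198539-19198688, chr16:19065368-19065517 and chr16:19061755-19061904 on the minus strand of GRCm38.
Iglc2: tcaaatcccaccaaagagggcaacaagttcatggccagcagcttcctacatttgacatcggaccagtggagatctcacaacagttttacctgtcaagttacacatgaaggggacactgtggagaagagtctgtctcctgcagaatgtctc
Iglc3: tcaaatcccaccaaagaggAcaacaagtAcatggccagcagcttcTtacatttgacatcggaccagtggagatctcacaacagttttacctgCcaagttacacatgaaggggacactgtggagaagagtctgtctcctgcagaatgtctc
Iglc1: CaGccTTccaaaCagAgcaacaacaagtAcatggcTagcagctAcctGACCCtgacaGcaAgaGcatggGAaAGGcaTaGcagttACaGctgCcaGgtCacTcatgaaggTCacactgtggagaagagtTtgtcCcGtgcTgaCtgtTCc

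**Figure D1:**
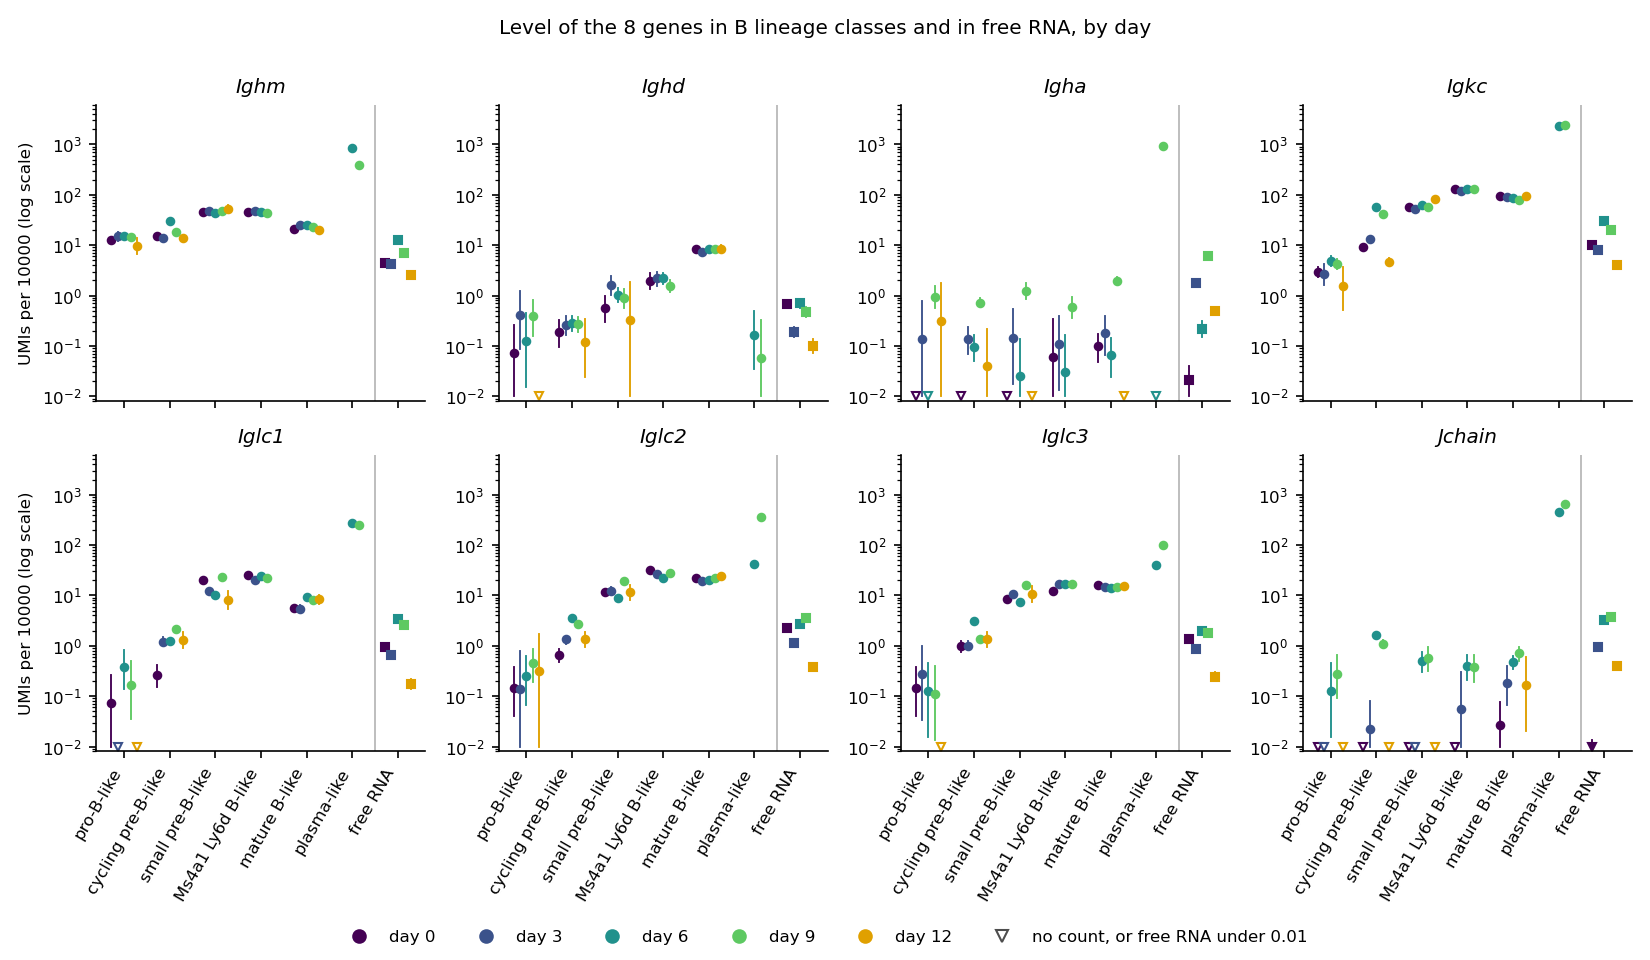
Level of each of the 8 genes (UMIs per 10000, log axis) in B-lineage classes with at least 10 cells, 1 point a library with its 95% Poisson interval, and free RNA as squares; open triangles stand for no count or free RNA under 0.01. *Ighd* separates mature B-like cells (7.35 to 8.43) from the other classes, and *Jchain* separates plasma-like cells (445 and 664).

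*Ighm*, the mu chain, was present from the earliest stage and, plasma-like cells aside, was highest in small pre-B-like and *Ms4a1 Ly6d* B-like cells. Pro-B-like cells had 12.4, 14.9, 15.5, 14.2 and 9.74 UMIs per 10000 on days 0, 3, 6, 9 and 12, and cycling pre-B-like cells had 15.3, 13.8, 29.5, 18.3 and 13.7. Small pre-B-like cells had 45.4, 46.9, 43.1, 47.0 and 52.8, and *Ms4a1 Ly6d* B-like cells had 44.7, 47.7, 45.1 and 43.5 on the first 4 days. Mature B-like cells had 20.5, 24.9, 25.2, 23.4 and 19.6. By library medians the order was plasma-like (629 over days 6 and 9), small pre-B-like (46.9), *Ms4a1 Ly6d* B-like (44.9), mature B-like (23.4), cycling pre-B-like (15.3), pro-B-like (14.2) and the day 3 cluster (3.28). The small pre-B-like and *Ms4a1 Ly6d* ranges overlapped, as did mature with cycling pre-B-like and cycling pre-B-like with pro-B-like, and the other neighbours did not. A UMI of *Ighm* was found in 89.5% of mature B-like cells (median depth 1546) and in 27.8% of neutrophil-like cells (median depth 3336), a class that should lack it. With all cells thinned to 500 UMIs the shares were 61.4% and 5.0%.

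*Ighd*, the delta chain, marked the mature stage. Mature B-like cells had 8.21, 7.35, 8.39, 8.34 and 8.43 UMIs per 10000, against 1.96, 2.18, 2.19 and 1.57 in *Ms4a1 Ly6d* B-like cells. Small pre-B-like cells had 0.565, 1.61, 1.04, 0.90 and 0.328, cycling pre-B-like cells 0.118 to 0.285, pro-B-like cells 0 to 0.419, plasma-like cells 0.168 and 0.0576 on days 6 and 9 and the day 3 cluster 0.0274. The mature range stood clear of the *Ms4a1 Ly6d* range and the small pre-B-like range stood clear of the cycling one, while *Ms4a1 Ly6d* overlapped small pre-B-like and pro-B-like overlapped both cycling pre-B-like and plasma-like. Of the summed *Ighm* and *Ighd* UMIs, *Ighd* made up 28.6%, 22.8%, 25%, 26.3% and 30.1% in mature B-like cells on days 0, 3, 6, 9 and 12. Over the libraries this was 26.4% (interval 25.5 to 27.3) in mature B-like cells, 4.24% in *Ms4a1 Ly6d* B-like, 2.08% in small pre-B-like and 0.0314% in plasma-like cells. A UMI of *Ighd* was found in 68.7% of mature B-like and 1.41% of neutrophil-like cells, or 35.6% and 0.197% after thinning. *Ighd* was the member whose UMIs lay most in that class, with 66.0% of them in mature B-like cells.

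*Igha*, the alpha chain of IgA, was a gene of few cells. Plasma-like cells had 1773 UMIs per 10000 on day 3 (4 cells), 0 on day 6 (20 cells, which allows up to 0.168), 922 on day 9 (12 cells) and 1055 on day 12 (1 cell). In mature B-like cells the level was 0.0980, 0.182, 0.0665 and 1.93 on days 0, 3, 6 and 9, with no UMI on day 12, which allows up to 0.248. The day 9 value came from 107 UMIs in 65 of 333 cells, 38 of them in 1 cell, while free RNA of that day carried 6.01 per 10000. Outside the plasma-like class the B-lineage levels lay between 0 and 1.93 and their ranges overlapped in each neighbouring pair. A UMI of *Igha* was found in 35.1% of plasma-like cells (median depth 10670) and 9.12% of neutrophil-like cells, or 24.3% and 1.29% after thinning.

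*Igkc*, the kappa constant gene, was low in pro-B-like cells and high from the small pre-B-like stage on. Pro-B-like cells had 2.9, 2.65, 4.88, 4.19 and 1.57 UMIs per 10000, below the free RNA level of their library on each day. Cycling pre-B-like cells had 9.19, 13.3, 58.0, 40.9 and 4.67, small pre-B-like cells 56.7, 53.2, 63.1, 57.9 and 83.4, *Ms4a1 Ly6d* B-like cells 130, 121, 133 and 128 and mature B-like cells 94.7, 90.4, 87.9, 78.6 and 96.0. In cycling pre-B-like cells 3 cells on day 6 and 1 cell on day 9 with at least 100 heavy chain UMIs carried most of the gene, and without them these levels were 15.7 and 12.5. The order by medians was plasma-like (2386), *Ms4a1 Ly6d* B-like (129), mature B-like (90.4), small pre-B-like (57.9), cycling pre-B-like (13.3), pro-B-like (2.9) and the day 3 cluster (0.497). Ranges overlapped between mature and small, small and cycling, and cycling and pro-B-like cells. A UMI of *Igkc* was found in 96.4% of mature B-like and 37.6% of neutrophil-like cells, or 90.2% and 8.13% after thinning.

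The lambda genes differed in how the levels of mature B-like cells stood to those of *Ms4a1 Ly6d* B-like cells. *Iglc1* had 19.9, 12.2, 10.1, 23.5 and 8.20 UMIs per 10000 in small pre-B-like cells, 25.2, 19.8, 24.1 and 22.0 in *Ms4a1 Ly6d* B-like cells and 5.68, 5.48, 9.34, 8.16 and 8.43 in mature B-like cells. *Iglc2* had 12.0, 12.5, 9.01, 19.4 and 11.5 in small pre-B-like cells, 31.8, 27.0, 21.8 and 27.8 in *Ms4a1 Ly6d* B-like cells and 22.1, 19.0, 20.04, 21.8 and 23.8 in mature B-like cells. *Iglc3* had 8.47, 10.5, 7.45, 16.2 and 10.8 in small pre-B-like cells, 12.3, 16.7, 16.5 and 17.2 in *Ms4a1 Ly6d* B-like cells and 16.1, 14.4, 13.8, 14.5 and 15.6 in mature B-like cells. *Iglc1* was thus lower in mature than in *Ms4a1 Ly6d* B-like cells with no overlap, while the ranges of *Iglc2* and of *Iglc3* overlapped between these classes. Cycling pre-B-like cells had 0.264 to 2.11 of *Iglc1*, 0.653 to 3.58 of *Iglc2* and 0.995 to 3.08 of *Iglc3*, clear of the small pre-B-like ranges. Small pre-B-like and mature ranges overlapped for each of the 3 genes. Pro-B-like medians were 0.0726, 0.250 and 0.125, and the levels of the day 3 cluster were 0.192, 0.133 and 0.0939. Plasma-like levels on days 6 and 9 were 275 and 252 for *Iglc1*, 42.5 and 367 for *Iglc2* and 40.1 and 102 for *Iglc3*. Much of this lay in single cells. Without the plasma-like cell with the most UMIs of the gene, left out after the data had been seen, the levels were 38.2 and 12.7, 39.2 and 53.4, and 11.03 and 28.1. A UMI was found in 33.5% (*Iglc1*), 79.3% (*Iglc2*) and 74.8% (*Iglc3*) of mature B-like cells and in 6.13%, 7.54% and 4.63% of neutrophil-like cells. After thinning the shares were 16.2%, 53.6% and 46.5% against 0.858%, 1.11% and 0.672%.

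*Jchain* was high in plasma-like cells alone, at 445 and 664 UMIs per 10000 on days 6 and 9. The 4 cells of day 3 gave 840 and the 1 cell of day 12 gave 304. Mature B-like cells had 0.0267, 0.182, 0.477, 0.704 and 0.165, and *Ms4a1 Ly6d* B-like cells 0 to 0.390. Cycling pre-B-like cells had 1.62 on day 6 and 1.09 on day 9, which became 0.254 and 0.30 without the 3 and 1 cells of high heavy chain content. Outside plasma-like cells the class ranges overlapped in each neighbouring pair. A UMI of *Jchain* was found in 78.4% of plasma-like cells with and without thinning. Mature B-like cells had 4.48% and neutrophil-like cells 5.76%, or 1.2% and 0.788% after thinning.

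Neighbouring stages were compared within mice by edgeR's quasi-likelihood test on class sums with a term for the mouse, and p-values were adjusted by Benjamini-Hochberg over 5402 genes. All 8 members could be tested. The members took no part in the clustering that made the classes, while most other genes were open to it. The shares of all genes given here thus rest partly on how the classes were made. Changes are log2 fold changes relative to the bulk of genes, since without the composition factors (TMM) the median of all genes moved by −0.15, 0.23, −0.38, −0.11 and −0.27 in the 5 comparisons given next. From pro-B-like to cycling pre-B-like cells 6 members rose and none fell, where 44.7% of all genes changed. From cycling to small pre-B-like cells 6 rose and 1 fell, where 58.4% changed, and from small pre-B-like to mature B-like cells 4 rose and 2 fell, where 32.7% changed. The *Ms4a1 Ly6d* class was set between small pre-B-like and mature B-like cells after the clusters had been seen and was tested in 4 mice. Its place in development was not tested. From small pre-B-like cells to this class 5 members rose, where 19.3% of genes changed. From the class to mature B-like cells 3 rose and 2 fell, where 17.5% changed. Median changes of the members in these 5 comparisons were 2.85, 1.53, 0.97, 0.71 and 0.09, against 0.03, 0.06, 0.01, 0.01 and 0.00 over all genes.

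The heavy chain genes changed in opposite ways at the mature step. SE stands for the size of the change divided by the square root of the test's F value, and is not the spread over mice. *Ighm* rose by 1.19 (SE 0.10, adjusted p = 4.45e-18 by edgeR, higher in 5 of 5 mice) from cycling to small pre-B-like cells. It fell by 0.62 (SE 0.10, adjusted p = 3.49e-07, lower in 5 of 5 mice) from there to mature B-like cells. *Ighd* rose by 1.77 (adjusted p = 2.47e-10, 5 of 5 mice) and then by 3.49 (SE 0.15, adjusted p = 1.9e-38, 5 of 5 mice) at the same steps. By medians *Ighd* was at 0.580 times the free RNA level in cycling pre-B-like cells. In small pre-B-like cells it was at 1.92 times (0.816 to 8.44), from 12, 22, 42, 24 and 1 UMIs on days 0, 3, 6, 9 and 12. With the *Ms4a1 Ly6d* class set between small pre-B-like and mature B-like cells, *Ighd* rose by 1.14 (adjusted p = 4.96e-06, 4 of 4 mice) and 2.36 (adjusted p = 1.57e-28, 4 of 4 mice). For *Ighm* the corresponding changes were 0.06, which did not pass and was −0.08 without TMM, and −0.68 (adjusted p = 3.46e-07, lower in 4 of 4 mice). *Ighm* also rose by 0.59 (adjusted p = 5.18e-06, higher in 4 of 5 mice) from pro-B-like to cycling pre-B-like cells, where *Ighd* changed by 0.48 and did not pass. Without the cells of at least 100 heavy chain UMIs, left out after the data had been seen, this rise of *Ighm* was 0.31 (adjusted p = 0.00832), and the cycling pre-B-like level of day 6 was 17.1 in place of 29.5.

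*Igha* passed the test in 1 of the 5 comparisons, the step from *Ms4a1 Ly6d* to mature B-like cells, with 1.94 (adjusted p = 0.00839 by edgeR, higher in 4 of 4 mice). This call rested on few UMIs and did not hold in DESeq2 (1.24, adjusted p = 0.626) or without the mouse term (1.34, adjusted p = 0.603). Without day 9 *Igha* could not be tested in any of the 5 comparisons. By medians it lay under free RNA in the classes compared here, at 0.302 times the free level in mature B-like cells. The values were 0.118 in *Ms4a1 Ly6d* B-like and 0.0814 in small pre-B-like cells. From small pre-B-like to mature B-like cells *Igha* changed by 1.19 with an adjusted p of 0.0644. It passed without day 6 (1.16, adjusted p = 0.00115 by edgeR), with genes of low counts kept (1.2, adjusted p = 0.000413), without immunoglobulin genes in the library size (1.26, adjusted p = 0.0479) and without the cells of at least 100 heavy chain UMIs (1.15, adjusted p = 0.0357).

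The light chain genes rose at each step up to the small pre-B-like stage. *Igkc* rose by 2.89 (SE 0.24, adjusted p = 1.71e-18 by edgeR, 5 of 5 mice) into cycling pre-B-like cells and by 1.30 (adjusted p = 9.06e-09, 5 of 5 mice) into small pre-B-like cells. Without the cells of at least 100 heavy chain UMIs, left out after the data had been seen, these changes were 1.84 and 2.23. The former step starts below free RNA and ends near it. Pro-B-like cells had 0.294 and cycling pre-B-like cells 1.64 times the free level of *Igkc* by medians, and cycling pre-B-like cells 0.825, 1.16 and 1.14 times that of *Iglc1*, *Iglc2* and *Iglc3*. Without the high heavy chain cells *Igkc* of days 6 and 9 (15.7 and 12.5) lay below free RNA (30.8 and 20.2). *Iglc1*, *Iglc2* and *Iglc3* rose by 3.18, 3.23 and 3.67 at the former step and by 3.45, 2.43 and 2.49 at the latter, each in 5 of 5 mice with adjusted p of 5.19e-08 or less. Leaving out day 6 moved the *Iglc1* change at the former step to 3.96, and leaving out the high heavy chain cells moved those of *Iglc3* to 3.09 and 3.08. At the mature step the lambda genes parted. *Iglc2* rose by 1.19 (adjusted p = 9.42e-07, higher in 5 of 5 mice) and *Iglc3* by 0.95 (adjusted p = 5.02e-07, 4 of 5 mice), while *Iglc1* fell by 0.66 (adjusted p = 0.000375, lower in 4 of 5 mice). *Igkc* rose by 0.99 there (adjusted p = 6.05e-06, 5 of 5 mice). In DESeq2 the changes of *Igkc* (0.92, adjusted p = 0.0833) and *Iglc1* (−0.62, adjusted p = 0.305) were alike in size but did not pass.

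The light chain genes were higher in the *Ms4a1 Ly6d* class than in small pre-B-like cells, and *Iglc1* was higher there than in mature B-like cells. From small pre-B-like cells *Igkc* rose by 1.13 (adjusted p = 4.15e-06 by edgeR, 4 of 4 mice), *Iglc1* by 0.70 (adjusted p = 0.000404, 3 of 4 mice), *Iglc2* by 1.24 (adjusted p = 3.36e-06, 4 of 4 mice) and *Iglc3* by 0.72 (adjusted p = 0.000642, 4 of 4 mice). DESeq2 gave 1.07, 0.78, 1.29 and 0.72 with adjusted p of 0.0848, 0.281, 0.0516 and 0.202, so that none of these 4 passed there. From the *Ms4a1 Ly6d* class to mature B-like cells *Iglc1* fell by 1.36 (adjusted p = 2.95e-11, lower in 4 of 4 mice). *Igkc* (−0.14), *Iglc2* (−0.05, but 0.04 and 0.01 without day 0 or day 3) and *Iglc3* (0.22, but −0.06 without TMM) did not pass.

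*Jchain* gave calls that hung on few cells, and by medians it lay under free RNA in the classes compared. It had 0.195 times the free level in mature B-like, 0.0803 in *Ms4a1 Ly6d* B-like and 0.0243 in cycling pre-B-like cells. It rose by 2.80 into cycling pre-B-like cells (adjusted p = 1.91e-07 by edgeR, higher in 3 of 5 mice), with 2.02 without day 6 and 3.6 without day 9. It fell by 1.44 into small pre-B-like cells (adjusted p = 1.62e-05, lower in 3 of 5 mice). Without the cells of at least 100 heavy chain UMIs the former change was 0.59 (adjusted p = 0.456) and the latter was 0.84 (adjusted p = 0.0419), so that it turned. DESeq2 gave 1.76 (adjusted p = 0.135) and −0.90 (adjusted p = 0.420), and without the mouse term the latter did not pass either (−1.21, adjusted p = 0.150). From small pre-B-like to mature B-like cells *Jchain* changed by 0.72 with an adjusted p of 0.0920, or by 1.21 with an adjusted p of 0.0280 without day 6. Its rise of 1.03 from *Ms4a1 Ly6d* to mature B-like cells (adjusted p = 0.0357, 4 of 4 mice) did not pass without day 0 (0.99, adjusted p = 0.0561), day 9 (0.90, adjusted p = 0.264) or day 12 (1.01, adjusted p = 0.0544). Nor did it pass in DESeq2 (1.66, adjusted p = 0.267), without the mouse term (0.60, adjusted p = 0.735), without TMM (0.73, adjusted p = 0.130) or without the high heavy chain cells (0.92, adjusted p = 0.0691).

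Genes that work with the antibody chains were counted at the same steps, with the share of all genes that changed in either direction beside the counts. Another list that was counted is not reported. Of 10 genes of B cell receptor signalling, which relay binding of antigen to the membrane antibody, 0 rose and 4 fell into cycling pre-B-like cells (median −0.43, 44.7% of all genes). Then 7 rose and 1 fell into small pre-B-like cells (median 0.74, 58.4% of all genes), with *Cd79b* at 1.92, *Syk* at 1.94 and *Lyn* at 1.72 and *Cd81* at −1.16. Into mature B-like cells 3 rose and 2 fell (median 0.06, 32.7% of all genes), with the complement receptor gene *Cr2* at 6.37. The counts were 4 and 2 into the *Ms4a1 Ly6d* class (median 0.16, 19.3% of all genes) and 1 and 2 from it to mature B-like cells (median 0.01, 17.5% of all genes). Of 12 genes for folding and secretion of antibody, to be set beside the same shares, 5 rose into cycling pre-B-like cells (median 0.41), with the chaperone genes *Sdf2l1* at 1.88 and *Hsp90b1* at 1.40. Into small pre-B-like cells 3 rose and 4 fell (median −0.17), and into mature B-like cells 1 rose and 4 fell (median 0.06), with *Ell2* at 1.5 and *Herpud1* at −2.05. The counts were 2 and 2 into the *Ms4a1 Ly6d* class (median 0.25) and 0 and 4 from it to mature B-like cells (median −0.30). Of the 5 other heavy chain constant genes none had enough counts to be tested.

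Plasma-like cells had at least 10 cells on days 6 and 9 alone, fewer than the 3 mice set as the minimum for a test, and were set beside mature B-like cells of the same day. On day 6, 6 of 7 members with enough counts were more than 2-fold higher and 1 was lower, where 45.5% of all genes passed 2-fold in either direction. On day 9, 7 of 8 were higher and 1 was lower, where 60.3% of genes passed. The difference in log2 was 5.10 and 4.09 for *Ighm*, 4.72 and 4.96 for *Igkc*, 4.88 and 4.95 for *Iglc1* and 9.87 and 9.88 for *Jchain*. *Iglc2* differed by 1.09 on day 6 and 4.08 on day 9, *Iglc3* by 1.54 and 2.81, and *Igha* by 8.90 on day 9. Single cells carried much of the lambda values, with 4282 of 4906 UMIs of *Iglc1* on day 6 and 4167 of 4371 on day 9, and 5548 of 6376 of *Iglc2* and 1309 of 1767 of *Iglc3* on day 9. The share of all genes was not counted without single plasma-like cells. Without the plasma-like cell with the most UMIs of each member, a setting chosen after the data had been seen, 4 of 7 were higher on day 6 and 5 of 8 on day 9. *Iglc1* then differed by 2.03 and 0.64, *Iglc2* by 0.97 and 1.30 and *Iglc3* by −0.33 and 0.96, while *Ighm* stood at 5.01 and 3.19, *Igkc* at 4.60 and 4.72 and *Jchain* at 9.75 and 9.82. *Ighd* went the other way, with ratios of 0.0201 (interval 0.00413 to 0.0589, from 3 UMIs) and 0.00691 (interval 0.000175 to 0.0387, from 1 UMI). The members' medians were 4.72 and 4.52, against −0.78 and −1.14 over all genes. Folding and secretion genes were higher in 10 of 10 with enough counts on each day (medians 3.14 and 2.20), for example *Sdf2l1* by 3.93 and 3.51 and *Hsp90b1* by 3.23 and 2.88. Receptor signalling genes were lower in 6 of 10 on day 6 and 5 of 6 on day 9 (medians −1.98 and −2.18). Of all genes past 2-fold 846 of 969 were lower on day 6 and 735 of 805 on day 9, and the changes of *Lyn* (−1.56) and *Blnk* (−1.08) on day 9 were within 2-fold of the median of all genes. Among the other heavy chain genes *Ighg3* was higher by 9.16 on day 6, with 894 of its 906 plasma-like UMIs in 1 cell.

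Within most single plasma-like cells antibody RNA took up much of the transcriptome. Of the 37 cells, 29 had at least 10 heavy chain constant UMIs, with a median depth of 12145 UMIs (1033 to 24236). In these 29 cells, chosen by their heavy chain UMIs, the 8 members made up a median of 46.2% of a cell's UMIs, from 2.03% to 73.5%. The other 8 plasma-like cells had 554 to 1157 UMIs with the members at a median of 0.229% of them, from 0 to 1.23%, and mitochondrial shares of up to 33.6%. The leading heavy chain was *Ighm* in 18 cells (62.1%, interval 42.3 to 79.3), *Igha* in 9 (31%, interval 15.3 to 50.8) and *Ighg3* in 2 (6.90%), of which 1 had 10 UMIs of *Ighg3* and 5 of *Ighm*. Only the other *Ighg3* cell was left with a limit of 80% or of 50 heavy chain UMIs. The leading gene held a median of 100% of a cell's heavy chain UMIs. The members' share was 43.8% in *Ighm* cells and 62.9% in *Igha* cells by medians, with *Jchain* at 0.487 and 0.473 and light chain UMIs at 2.73 and 2.30 per heavy chain UMI.

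**Figure D2:**
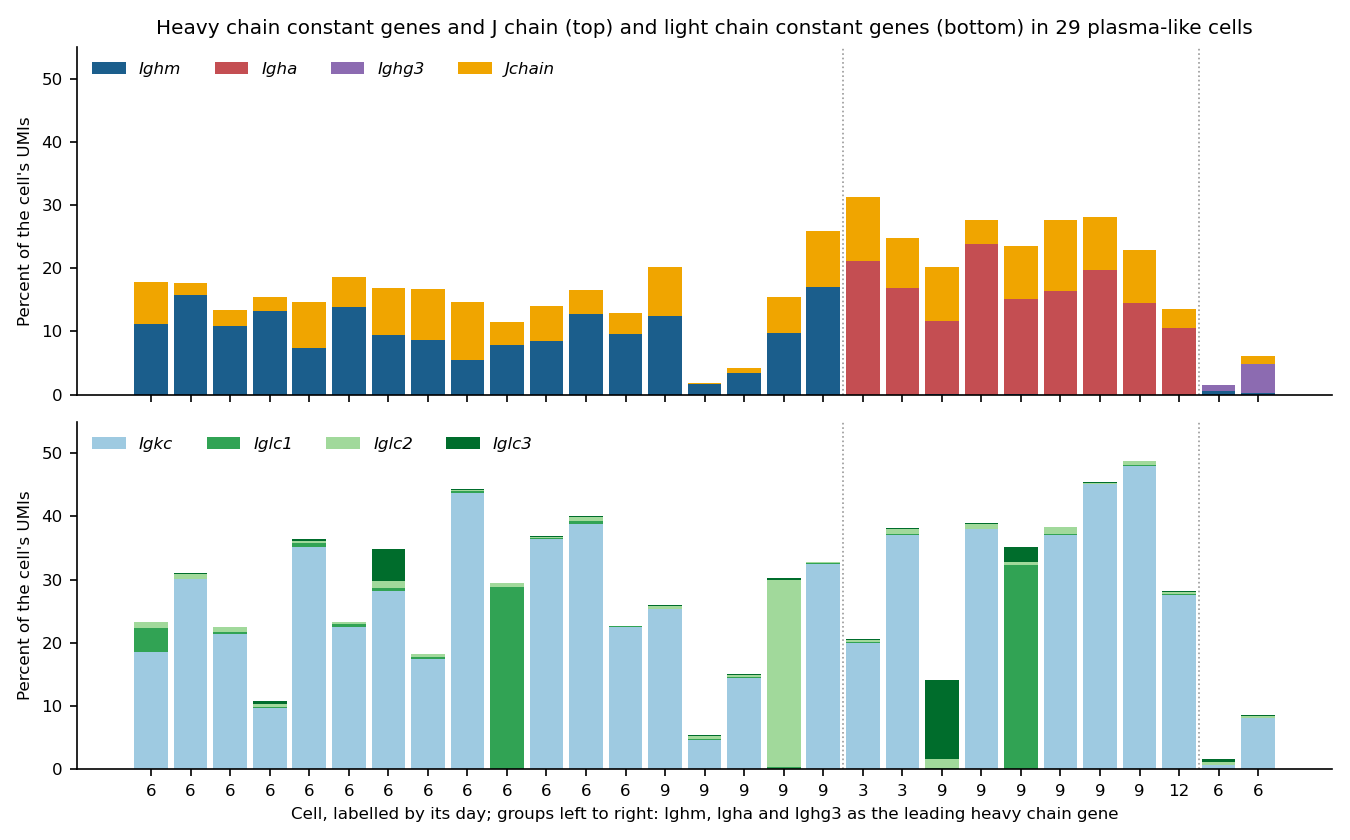
Heavy chain and *Jchain* UMIs (top) and light chain UMIs (bottom) as percent of all UMIs in each of the 29 plasma-like cells with at least 10 heavy chain UMIs, grouped by leading heavy chain and labelled by day. The leading heavy chain is *Ighm* in 18 cells, *Igha* in 9 and *Ighg3* in 2, the smaller of which also has 5 UMIs of *Ighm* beside 10 of *Ighg3*, and 4 cells show a lambda gene in place of *Igkc*.

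The heavy chain classes of plasma-like cells were counted by mouse. Both cells of day 3 with enough UMIs were *Igha* cells, day 6 had 13 *Ighm* and 2 *Ighg3* cells of 15, day 9 had 5 *Ighm* and 6 *Igha* cells of 11, and the 1 cell of day 12 was an *Igha* cell. Among cells of any class with at least 100 heavy chain UMIs, a set chosen after the data had been seen, there were 0, 4, 22, 12 and 1 cells on days 0, 3, 6, 9 and 12. Of these 39, *Ighm* led in 27, *Igha* in 10, *Ighg2c* in 1 and *Ighg3* in 1. Day 6 thus also had an *Igha* cell, outside the plasma-like cluster, with 429 of the 535 *Igha* UMIs of that day. Among plasma-like cells *Ighm* led in 86.7% (interval 59.5 to 98.3) on day 6 and 45.5% (interval 16.7 to 76.6) on day 9, so that the intervals overlapped. With so few cells a mouse, the difference between days was not tested.

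In most plasma-like cells either *Igkc* or the lambda genes held most light chain UMIs, and each lambda gene led in some cell. *Igkc* held at least 80% of light chain UMIs in 23 of 29 cells (79.3%), the lambda genes in 4 (13.8%, interval 3.89 to 31.7) and neither in 2, or in 5 with the limit at 90%. UMIs of both kinds were present in 28 of the 29, at a median of 3229 light chain UMIs a cell. A day 6 *Ighm* cell had 4282 UMIs of *Iglc1* and 3 of *Igkc*, and a day 9 *Igha* cell had 4167 of *Iglc1* and 1 of *Igkc*. Another day 9 *Ighm* cell had 5548 UMIs of *Iglc2*, 47 of *Iglc3* and 0 of *Igkc*. A further *Igha* cell of that day had 1309 UMIs of *Iglc3*, 147 of *Iglc2* and 2 of *Igkc*. The near-identical *Iglc2* and *Iglc3*, whose coding ends are printed above, were thus counted apart in these cells. A kappa cell of day 6 held 2967 UMIs of *Igkc* together with 530 of *Iglc3*.

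In most mature B-like cells neither kind of light chain reached 80%. Of 1409 cells with at least 10 light chain UMIs, *Igkc* held 80% or more in 415 (29.5%, interval 27.1 to 31.9), the lambda genes in 78 (5.54%, interval 4.40 to 6.86) and neither in 916 (65.0%, interval 62.5 to 67.5). UMIs of both kinds were present in 1321 of these cells. The lambda share of a cell's light chain UMIs had a median of 29% and quartiles of 18.2% and 41.7%, at a median of 22 light chain UMIs a cell. The share of lambda cells by day was 4.97%, 3.17%, 5.44%, 8.05% and 5.48%. Among the 78 lambda cells *Iglc2* and *Iglc3* held 80% together in 22, *Iglc2* alone doing so in 8 and *Iglc3* alone in 1, and *Iglc1* did in 4. Neutrophil-like cells, at a greater depth, had 0.215 UMIs of *Iglc2* per 10000 where mature B-like cells had 21.2. With the limit at 90% the *Igkc* share was 11.8% and the share with neither was 83.9%.

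Small pre-B-like cells were more often led by *Igkc* or lambda than mature B-like cells. Of 351 cells with at least 10 light chain UMIs *Igkc* led in 187 (53.3%), lambda in 83 (23.6%, interval 19.3 to 28.4) and neither in 81 (23.1%). The lambda share of a cell had a median of 16.7%, at a median of 20 light chain UMIs. By day the share of lambda cells was 25%, 24.4%, 16.8%, 32.7% and 15.4%, above the mature B-like share on each day. *Ms4a1 Ly6d* B-like cells stood between, with *Igkc* leading in 151 of 409 (36.9%), lambda in 43 (10.5%) and neither in 215 (52.6%). With the limit at 90% *Igkc* led in 43.0% and neither in 39.9% of small pre-B-like cells, and in 18.6% and 72.6% of *Ms4a1 Ly6d* B-like cells. Summed over cells, lambda genes gave 41.6%, 39.8%, 29.6%, 50.5% and 26.8% of light chain UMIs in small pre-B-like cells on days 0, 3, 6, 9 and 12. In mature B-like cells they gave 31.7%, 30.1%, 33.0%, 36.1% and 33.3%, so that the sums overlapped while the spread over cells did not look alike.

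**Figure D3:**
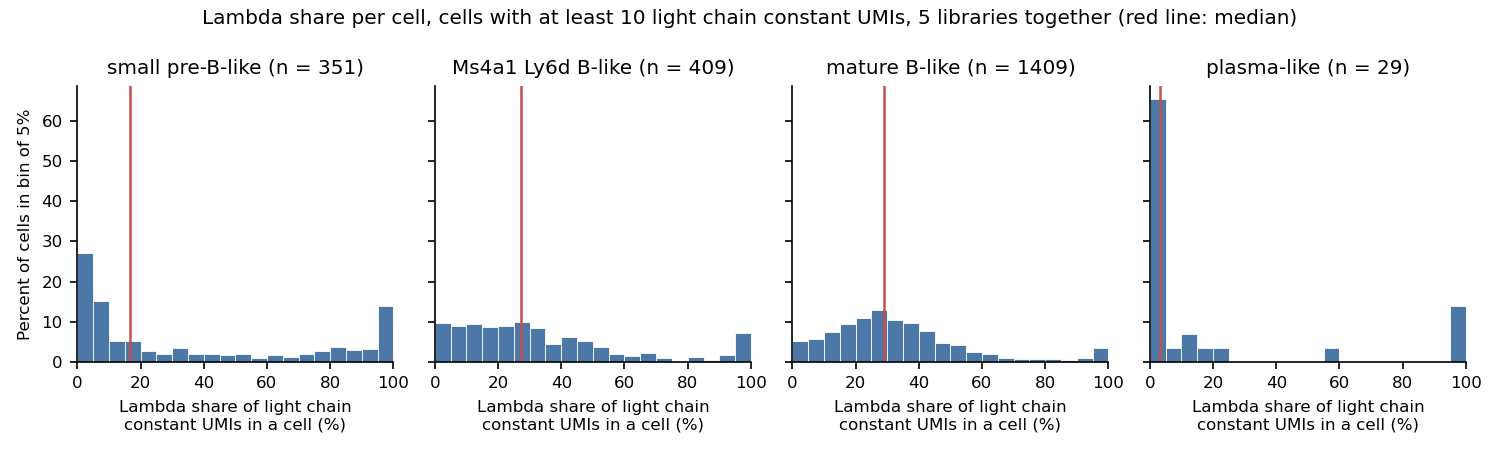
Histograms (5% bins) of the lambda share of light chain UMIs per cell in 4 classes (351 small pre-B-like, 409 *Ms4a1 Ly6d* B-like, 1409 mature B-like and 29 plasma-like cells with at least 10 light chain UMIs), the red line marking the median. Mature B-like cells pile up around their median of 29%, while small pre-B-like and plasma-like cells gather near the ends, with medians of 16.7% and 3.33%.

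Mature B-like and small pre-B-like cells were compared with day 0, and most members with enough counts stayed within 2-fold there. The cycling pre-B-like levels, printed above, and the small pre-B-like cells of day 12 (17 cells) were not compared in this way. Small pre-B-like cells had 8.20 UMIs of *Iglc1* per 10000 on day 12 against 19.9 on day 0, which is past 2-fold. In mature B-like cells 0 of 6 members with enough counts passed 2-fold on day 3 (4.04% of all genes passed), 0 of 6 on day 6 (1.77%), 1 of 7 on day 9 (3.32%) and 0 of 6 on day 12 (7.88%). The 1 member past 2-fold was *Igha* on day 9, with a ratio of 19.7 (interval 10.6 to 40.7), on the day when it was also highest in free RNA. *Jchain* had too few UMIs for a call, with ratios of 17.8 (interval 5.71 to 89.9) on day 6 and 26.3 (interval 8.37 to 133) on day 9. In small pre-B-like cells 0 of 5 passed on day 3 (4.27% of all genes), 0 of 6 on day 6 (2.74%) and 0 of 5 on day 9 (3.55%). Among members with enough counts the greatest log2 differences there were −0.71 and −0.98 for *Iglc1* on days 3 and 6 and 0.94 for *Iglc3* on day 9. With too few counts for a call, *Igha* had 0 UMIs on day 0 and 33 on day 9. *Jchain* had 0 on day 0 and 20 and 15 on days 6 and 9, and *Ighd* had 12 on day 0 and 22 on day 3.

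The members differed from day to day in free RNA. The 8 members together made up 19.6, 18.0, 55.8, 45.5 and 8.38 UMIs per 10000 in free RNA of days 0, 3, 6, 9 and 12. *Igkc* had 9.88, 8.11, 30.8, 20.2 and 4.07, and *Ighm* had 4.50, 4.28, 12.8, 7.13 and 2.52. *Igha* had 0.0215, 1.80, 0.220, 6.01 and 0.486, and *Jchain* had 0.00239, 0.932, 3.19, 3.69 and 0.399. *Ighd* had 0.692, 0.191, 0.709, 0.468 and 0.0997, *Iglc1* 0.942, 0.668, 3.42, 2.56 and 0.176, *Iglc2* 2.23, 1.16, 2.65, 3.57 and 0.384 and *Iglc3* 1.34, 0.881, 2.01, 1.79 and 0.243. Day 9 was highest for *Igha*, *Iglc2* and *Jchain* and day 6 for the other members, and all but *Igha* and *Jchain* were lowest on day 12. The source of this RNA was not tested.

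Against day 0, 2 of 8 members were more than 2-fold higher and 1 lower in free RNA of day 3, where 4.07% of all genes passed. On day 6, 4 of 7 were higher (3.94% of genes), on day 9, 4 of 8 were higher (4.15%), and on day 12, 2 were higher and 5 lower of 8 (5.05%). *Igha* differed in log2 by 6.39 on day 3, 8.13 on day 9 and 4.50 on day 12, with too few counts on day 6. In barcodes with at most 50 UMIs, which held 4 UMIs of *Igha* on day 0, these differences were 3.73, 6.01 and 1.36, the first and last with too few counts for a call. *Jchain* likewise had too few there on days 3 and 12. *Jchain* had 1 UMI in free RNA of day 0, and its ratio on day 3 was 391 (interval 69.6 to 15478). On day 6 *Ighm* was higher by 1.51, *Igkc* by 1.64 and *Iglc1* by 1.86, and on day 9 *Igkc* by 1.03 and *Iglc1* by 1.44. In barcodes with at most 50 UMIs the day 6 values were 1.23, 1.34 and 1.12, *Iglc1* had 1.62 on day 9, and *Igkc* had 0.60 on day 9 and no longer passed 2-fold. On day 12 the differences were −2.79 for *Ighd*, −1.28 for *Igkc*, −2.42 for *Iglc1*, −2.54 for *Iglc2* and −2.46 for *Iglc3*, and *Ighd* stood at −1.86 on day 3. All of these passed with at most 50 UMIs too, where *Ighm* on day 12 had −1.37 in place of −0.83 and came to pass. *Ighg2c* and *Ighg3* had 50 and 51 free UMIs on day 6 and at most 1 on the other days.

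**Figure D4:**
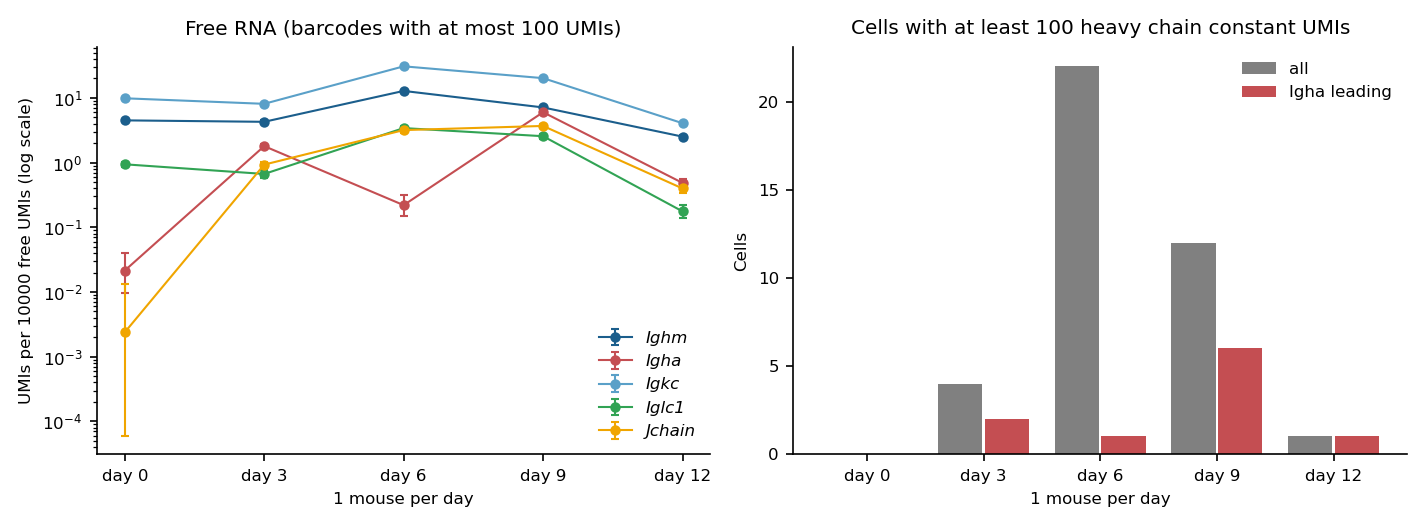
Left, level of 5 members in free RNA by day (UMIs per 10000, log axis); right, number of cells of any class with at least 100 heavy chain UMIs, and of those led by *Igha*. *Igha* in free RNA was 1.80, 0.220, 6.01 and 0.486 on days 3, 6, 9 and 12 and 0.0215 on day 0, when no such cell was found.

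A few cells held much of the antibody RNA of the marrow. The 37 plasma-like cells, of 32135, held 48.9% of *Igkc*, 84.2% of *Igha*, 85.2% of *Jchain*, 29.5% of *Ighm* and 48.8% of *Iglc1* UMIs. They held 31% of *Iglc2*, 16.3% of *Iglc3* and 0.186% of *Ighd*. On days 0, 3, 6, 9 and 12 their share was 0%, 36.2%, 49.8%, 64.3% and 53.0% for *Igkc* and 0%, 0.0808%, 44.7%, 35.0% and 0% for *Ighm*. It was 0%, 88.4%, 0%, 85.2% and 87.8% for *Igha* and 0%, 4.41%, 57.4%, 58.2% and 9.03% for *Iglc1*. For *Jchain* it was 0%, 78.8%, 80.7%, 90.2% and 85.5%. The 39 cells with at least 100 heavy chain UMIs held 59.5% of *Igkc* and 91.0% of *Jchain*. A single cell held 50.1% of *Iglc1* on day 6, 55.5% of *Iglc1* on day 9 and 50.8% of *Iglc2* on day 9, so that lambda levels of whole libraries rested on 1 cell each.

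Outside the B lineage most members stayed under the free RNA level, with cells of at least 100 heavy chain UMIs left out. In neutrophil-like cells *Ighm* was at 12.2%, 15.4%, 12.4%, 14.9% and 14.6% of the free level in the order of days. *Iglc3* stood apart in plasmacytoid dendritic-like cells, a class of 792 cells that passed 8 of 8 of its markers. There it had 4.34, 7.19, 9.71, 7.32 and 5.58 UMIs per 10000, which were 324%, 816%, 483%, 408% and 2296% of the free level. Its near copy *Iglc2* was at 11.8% to 24.5% of the free level in the same cells, and *Igkc* at 20.6% to 57.6%. A UMI of *Iglc3* was found in 59.2% of plasmacytoid dendritic-like cells (median depth 4477.5) and 4.63% of neutrophil-like cells. After thinning the shares were 27.4% (interval 24.3 to 30.6) and 0.672%.

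*Ighm* was at a greater percent of its free RNA level than *Igkc* in all 6 classes shown outside the B lineage and on each day. In plasmacytoid dendritic-like cells it had 7.41, 8.55, 10.1, 8.78 and 7.52 UMIs per 10000, or 165%, 200%, 78.5%, 123% and 298% of the free level. In monocyte-like cells it was at 39.6%, 59.5%, 25.7%, 34.6% and 67.3% of the free level, where *Igkc* was at 8.54%, 8.23%, 9.52%, 8.62% and 6.02%. In T-like cells it was at 44.8%, 40.3%, 26.9%, 33.3% and 54.4%, where *Igkc* was at 8.22% to 17.3%. Progenitor-like cells had 17.0% to 47.9% against 4.92% to 7.73%, and NK-like cells 18.2% to 50.6% against 4.75% to 15.7%. The difference was smallest in neutrophil-like cells, where *Igkc* was at 6.68%, 8.01%, 11.6%, 10.4% and 7.02%. The ratio of *Ighm* to *Igkc* in these classes thus differed from that in free RNA of the same library.

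**Figure D5:**
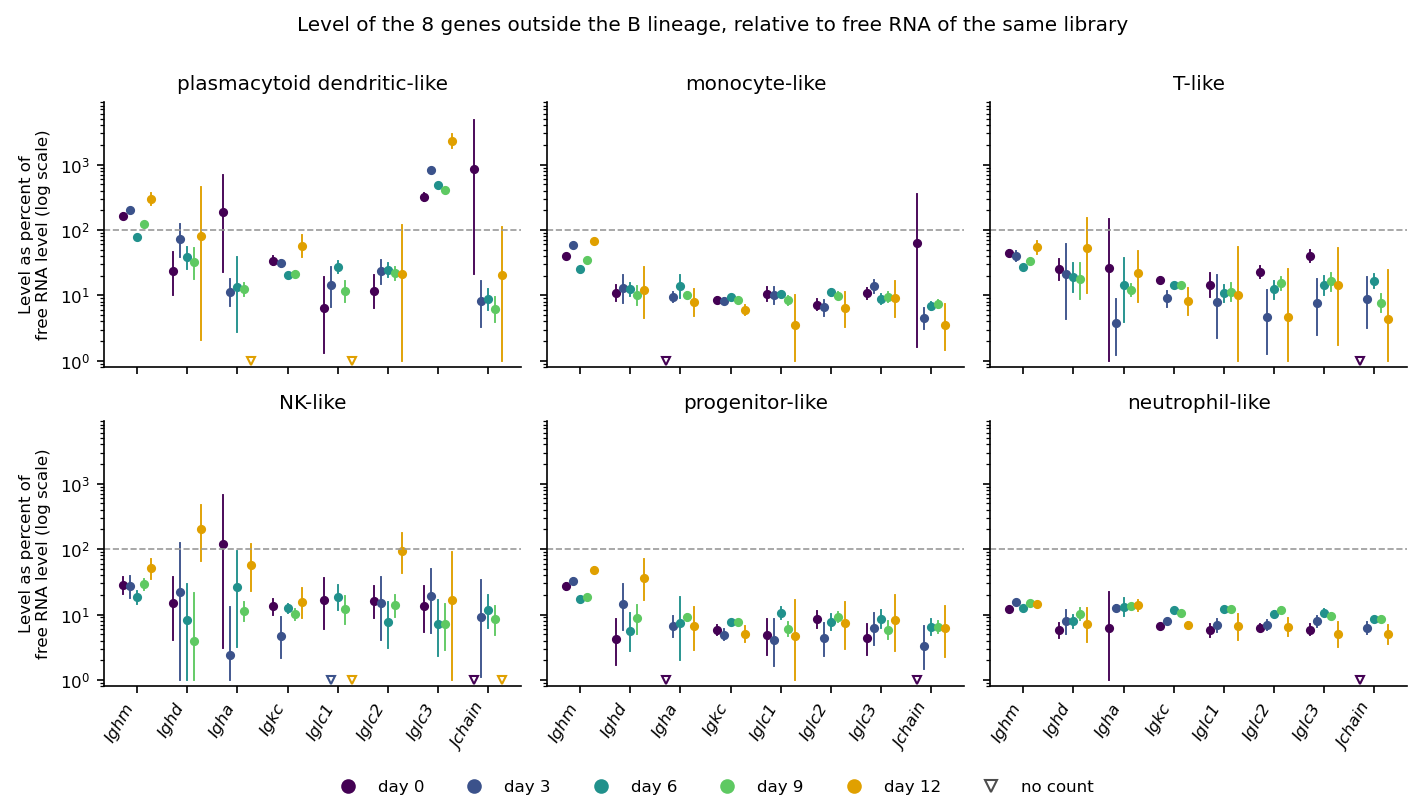
Level of each member as percent of its free RNA level (log axis) in plasmacytoid dendritic-, monocyte-, T-, NK-, progenitor- and neutrophil-like cells, 1 point a library, with a dashed line at 100%. *Iglc3* in plasmacytoid dendritic-like cells lies above the line in the 5 libraries (324% to 2296%).

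The genes most like each member were found by Pearson's r over 55 sums of 14 classes by library, among 4569 genes without the members and all other immunoglobulin genes, as a description, since sums of a class or of a library share cells and depth. *Ighm* was closest to *Dennd5b* (0.901), *St6gal1* (0.897) and *Gm43291* (0.879), and *Ighd* to *Gm43603* (0.964), *Bank1* (0.959) and *Fchsd2* (0.958). *Igkc* was closest to *Gm43291* (0.904), *Dennd5b* (0.897) and *Ralgps2* (0.885), and *Iglc1* to the same 3 genes (0.888, 0.870 and 0.835). *Iglc2* was closest to *Ralgps2* (0.952), *Swap70* (0.908) and *Tnfrsf13c* (0.904), and *Iglc3* to *Ly6d* (0.926), *Tnfrsf13b* (0.902) and *Hvcn1* (0.892). *Jchain* was closest to *Chst1* (0.979), *Cacna1s* (0.978) and *Kcnmb4os2* (0.966). Sums were of at least 20 cells, so that the only plasma-like sum was that of day 6, on which these values rest. *Igha* had no UMI in that sum and reached 0.353 at most, with *Hipk1*, followed by *Hbb-bs* (0.322) and *Ctnnb1* (0.319). The plasma-like cells in which it was high were not among the sums, so whether it had a close match was not tested. *Igkc* and *Iglc1* were closer to *Iglc2* (0.948 and 0.945), and *Ighm* to *Igkc* (0.922), than to any of these genes.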

How the data were processed

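The authors deposited 1 unfiltered 10x Genomics 3′ v2 matrix of raw UMI counts per library, made with Cell Ranger on mm10, and no normalization had been applied. The members and gene lists were chosen with earlier results of these data known. Named genes were the 8 members, the genes of lists for B cell receptor signalling, antibody folding and secretion, and other heavy chain constant genes, and the 3 genes most like each member. Barcodes with at least 500 UMIs were cells (32135 in all, none left out for mitochondrial share or doublet score). Barcodes with at most 100 UMIs gave free RNA. Cells were clustered at 2 levels with scanpy 1.11.5 and leidenalg 0.10.2, leaving out 393 immunoglobulin genes, *Jchain*, list genes and mitochondrial genes. Variable genes had to be found in 0.2% of cells, a minimum set after seeing that plasma cells did not separate, and unnamed clusters of the former level entered the latter. A cluster took a name with at least 3 markers found in 20% of its cells and 2-fold higher than elsewhere. Scrublet's own threshold marked under 0.5% of cells in 4 of 5 libraries, so the top 5% of scores were left out as an alternative. Class sums of at least 10 cells went into edgeR 4.0.16 (R 4.3.3) with TMM factors, a block for the mouse and Benjamini-Hochberg adjustment at 0.05, tested on simulated data. Changes between days, and of plasma-like from mature B-like cells, were called past 2-fold for genes with at least 50 UMIs over both sums. Positions and sequences came from GRCm38 with GENCODE vM21, read with biopython 1.88. Other tools were Python 3.11.15, numpy 2.4.6, scipy 1.17.1, pandas 2.3.3, scikit-learn 1.9.0 and matplotlib 3.10.9. Alternatives were DESeq2 1.42.0, no mouse block, no TMM, other count minimums, other limits for cells, free RNA and light chain dominance, thinning, clustering resolution 1.0, and each mouse left out.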

Additional observations from a re-analysis of the deposited data

Results flagged for a closer look

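Of 38 sets of 4 or 5 libraries, 7 held a value far from the others, where chance flags about 1 in 20 groups. Since each library is a different day, these values are differences between days as much as between animals, and their causes were not tested. *Ighm* in cycling pre-B-like cells was highest on day 6, at 29.5 UMIs per 10000 against 13.7 to 18.3 in the other libraries, and it was 17.1 without 3 cells of at least 100 heavy chain UMIs. *Iglc3* in the same cells was highest on day 6, at 3.08 against 0.995 to 1.37, and it was 1.24 without those 3 cells. *Ighd* in mature B-like cells was lowest on day 3, at 7.35 against 8.21 to 8.43.

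*Igha* was highest on day 9 in cycling pre-B-like cells (0.725 against 0 to 0.136), in mature B-like cells (1.93 against 0 to 0.182) and in plasmacytoid dendritic-like cells (0.746 against 0 to 0.205). Day 9 was also the highest day of *Igha* in small pre-B-like (1.24), pro-B-like (0.95) and neutrophil-like cells (0.804). The same held for T-, NK-, monocyte- and progenitor-like cells. On that day free RNA held 6.01 UMIs of *Igha* per 10000, its highest value. *Iglc3* in *Ms4a1 Ly6d* B-like cells was lowest on day 0, at 12.3 against 16.5 to 17.2 in 3 other libraries.

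Some signal lay outside the 8 members and the stage tests. On day 6, 1197 UMIs of *Ighg2c* were found, 1057 of them in 1 cell, and 1066 UMIs of *Ighg3*, 894 of them in 1 cell. The unnamed day 3 cluster had *Ighm* at 3.28 UMIs per 10000.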

How the results depend on the processing

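Of the main results under their alternatives, 152 values kept their size or call and 17 moved. Of the values of single members, 898 kept theirs, 121 moved, 12 changed direction, 5 came to pass the test and 19 no longer passed, 10 of these in DESeq2. The cause was not tested except where named.

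With a mean over cells the *Ighd* level of mature B-like cells was 9.12. In barcodes with at most 50 UMIs free *Igkc* was 10.3, 8.52, 26.1, 15.6 and 1.74 on days 0, 3, 6, 9 and 12, so that its difference between day 9 and day 0 no longer passed 2-fold. Without thinning 59.2% of plasmacytoid dendritic-like cells had a UMI of *Iglc3*. With at least 5 light chain UMIs *Igkc* was dominant in 32.4% and neither chain in 61.8% of mature B-like cells. At 90% dominance the values were 11.8% for *Igkc*, 4.33% for lambda and 83.9% for neither.

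From small pre-B-like to *Ms4a1 Ly6d* B-like cells DESeq2 called 1 member. From there to mature B-like cells DESeq2 and the fit without mouse block called 3 each, and leaving out 1 mouse gave 3 to 5 (3 without day 9). In small pre-B-like cells thinned to 500 UMIs 1 member passed 2-fold on day 6. The shares of all genes in these settings are not given here, so these counts cannot be set beside those of all genes.

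Directions turned for *Igha* from pro-B-like to cycling pre-B-like cells (−0.168 to 0.160 with 1 mouse left out, −0.0854 without TMM, −0.0418 without cells of at least 100 heavy chain UMIs) and into small pre-B-like cells (−0.64, DESeq2). *Jchain* turned there to 0.84 without the same cells. Into *Ms4a1 Ly6d* B-like cells *Ighm* was −0.0840 without TMM, and DESeq2 gave 0.41 for *Igha* and 0.0107 for *Jchain*. From there to mature B-like cells *Iglc2* was −0.139 to 0.0373 with 1 mouse left out and *Iglc3* −0.0603 without TMM. Between plasma-like and mature B-like cells of day 6 *Iglc3* turned to −0.327 without the plasma-like cell with the most UMIs of it. The settings without TMM, without the cells of at least 100 heavy chain UMIs, without the top Scrublet scores, without that plasma-like cell and with the *Ms4a1 Ly6d* class were chosen after seeing the data.

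With 1 mouse a day and at most 20 plasma-like cells a mouse, heavy chain classes of plasma cells were known only within wide intervals. Without day 9 *Igha* could not be tested between any of the stages.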
